A study of Drosophila melanogaster with 12 samples.

Results

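The nuclear genes for oxidative phosphorylation were examined in RNA from glial nuclei of wandering *Drosophila melanogaster* larvae of the third instar. They were chosen by FlyBase symbol alone: symbols that start with ND-, UQCR- or ATPsyn, the symbols *SdhA*, *SdhB*, *SdhC* and *SdhD*, and symbols made of COX and a digit. Of 84 such symbols in the annotation, 82 had a row among the 15682 genes counted, with 39 in complex I, 4 in complex II, 9 in complex III, 15 in complex IV and 15 in complex V. *ND-30* and *COX7CL* were not analysed here. Of the 82 genes, 20 carry an added L in the symbol, FlyBase's mark for a gene that resembles the subunit it is named after.

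The 3 genotypes were compared, with 4 biological replicate libraries each, and every library pooled many dissected eye-brain complexes. The *nonstop* larvae were homozygous for the allele *not02069* on a chromosome that also carried *ry506*, and the *sgf11* larvae were homozygous for the insertion *e01308* in *CG13379*, the gene now called *Sgf11*. The wild-type larvae carried neither allele and had *TM3*, *Sb1*, a balancer of chromosome 3. All larvae were *w* and carried *repo-GAL4*, a glial driver, with *UAS-GFP-Msp300KASH* at *attP2*, which puts GFP on the outer face of the nucleus. The nuclei were enriched through this GFP, so nuclei of other cells can remain, and a mutant allele cannot be told apart from the rest of chromosome 3, which also differs between the lines. Nonstop and Sgf11 are subunits of the deubiquitinase module of the coactivator SAGA, which removes ubiquitin from histone H2B.

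Oxidative phosphorylation makes most of the ATP of a respiring cell. Complexes I and II pass electrons from NADH and succinate to ubiquinone, complex III passes them to cytochrome c, complex IV passes them to oxygen, and complex V, the ATP synthase, uses the resulting proton gradient. Every complex but complex II joins proteins made from nuclear genes with proteins made from the mitochondrial genome, so the nuclear genes described here supply only part of each machine. In the fly brain, glia are known for strong glycolysis and for passing fuel to neurons. The values are of RNA in nuclei, which includes unspliced transcripts, and say nothing of protein.

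The libraries held between 6913032 and 11459317 reads assigned to genes, so that 1 CPM (read counts scaled to a common library size) stood for 7 to 12 reads. The oxidative phosphorylation genes took 0.220% to 0.260% of these reads in *nonstop*, 0.273% to 0.294% in *sgf11* and 0.227% to 0.266% in wild type. A gene was tested where it exceeded 1 CPM in at least 4 of the 12 libraries, which 9966 genes did. The allele labels held: *nonstop* averaged 9.79 CPM in *nonstop*, 17.2 in *sgf11* and 26.8 in wild type, and *Sgf11* had 2 reads over the 4 *sgf11* libraries. The 10 glial markers, none of them at 0, summed to 4441 to 6463 CPM in *nonstop*, 4735 to 7520 in *sgf11* and 4466 to 5177 in wild type, and *repo*, which defines glia, stood at 121 CPM in *nonstop*, 126 in *sgf11* and 148 in wild type.

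Of the 82 genes, 67 passed the filter. The 15 that did not were *ND-B8*, *UQCR-6.4* and 13 L genes. Among the 67, 63 exceeded 1 CPM in every wild-type library. The other 4, *ND-MWFE*, *COX4L* and *ATPsynbetaL* among them, passed only with the help of mutant libraries and so could hardly have been found lower in the mutants. The levels of the 67 were typical of the table, with a median of 13.5 CPM against 12.9 CPM over all genes tested. Their measurement was also about as precise: the median standard error of the log2 fold change of *nonstop* over wild type was 0.16 for the 67 genes and 0.17 over all genes.

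Most of these genes were called neither in *nonstop* nor in *sgf11*. A gene was called where edgeR's quasi-likelihood test gave an adjusted p (Benjamini-Hochberg, over the 9966 genes) under 0.01. In *nonstop* over wild type, 6 genes rose (*ND-MLRQ*, *ND-MNLL*, *SdhA*, *UQCR-11*, *UQCR-11L* and *ATPsynbetaL*) and *ATPsynO* fell, 10.4% of the 67 tested, where 35.7% of all genes tested were called, 18.7% as higher and 17.0% as lower. In *sgf11* over wild type, 9 genes rose (*ND-13B*, *ND-AGGG*, *ND-MNLL*, *SdhA*, *UQCR-11*, *UQCR-11L*, *UQCR-Q*, *COX4L* and *ATPsynF*) and 0 fell, 13.4% of the 67, where 30.5% of all genes were called, 16.4% as higher and 14.1% as lower. At an unadjusted p under 0.05 the counts were 19 of 67 in *nonstop*, where 55.0% of all genes passed, and 26 of 67 in *sgf11*, where 51.1% passed. At an adjusted p under 0.05 they were 14 of 67 in *nonstop*, where 49.0% of all genes passed, and 22 of 67 in *sgf11*, where 44.2% passed. DESeq2 and edgeR's exact test also called 0 genes lower in *sgf11*. Among the genes that rose, *ATPsynbetaL* in *nonstop* and *COX4L* in *sgf11* had passed the filter only with the help of mutant libraries.

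**Figure D1:**
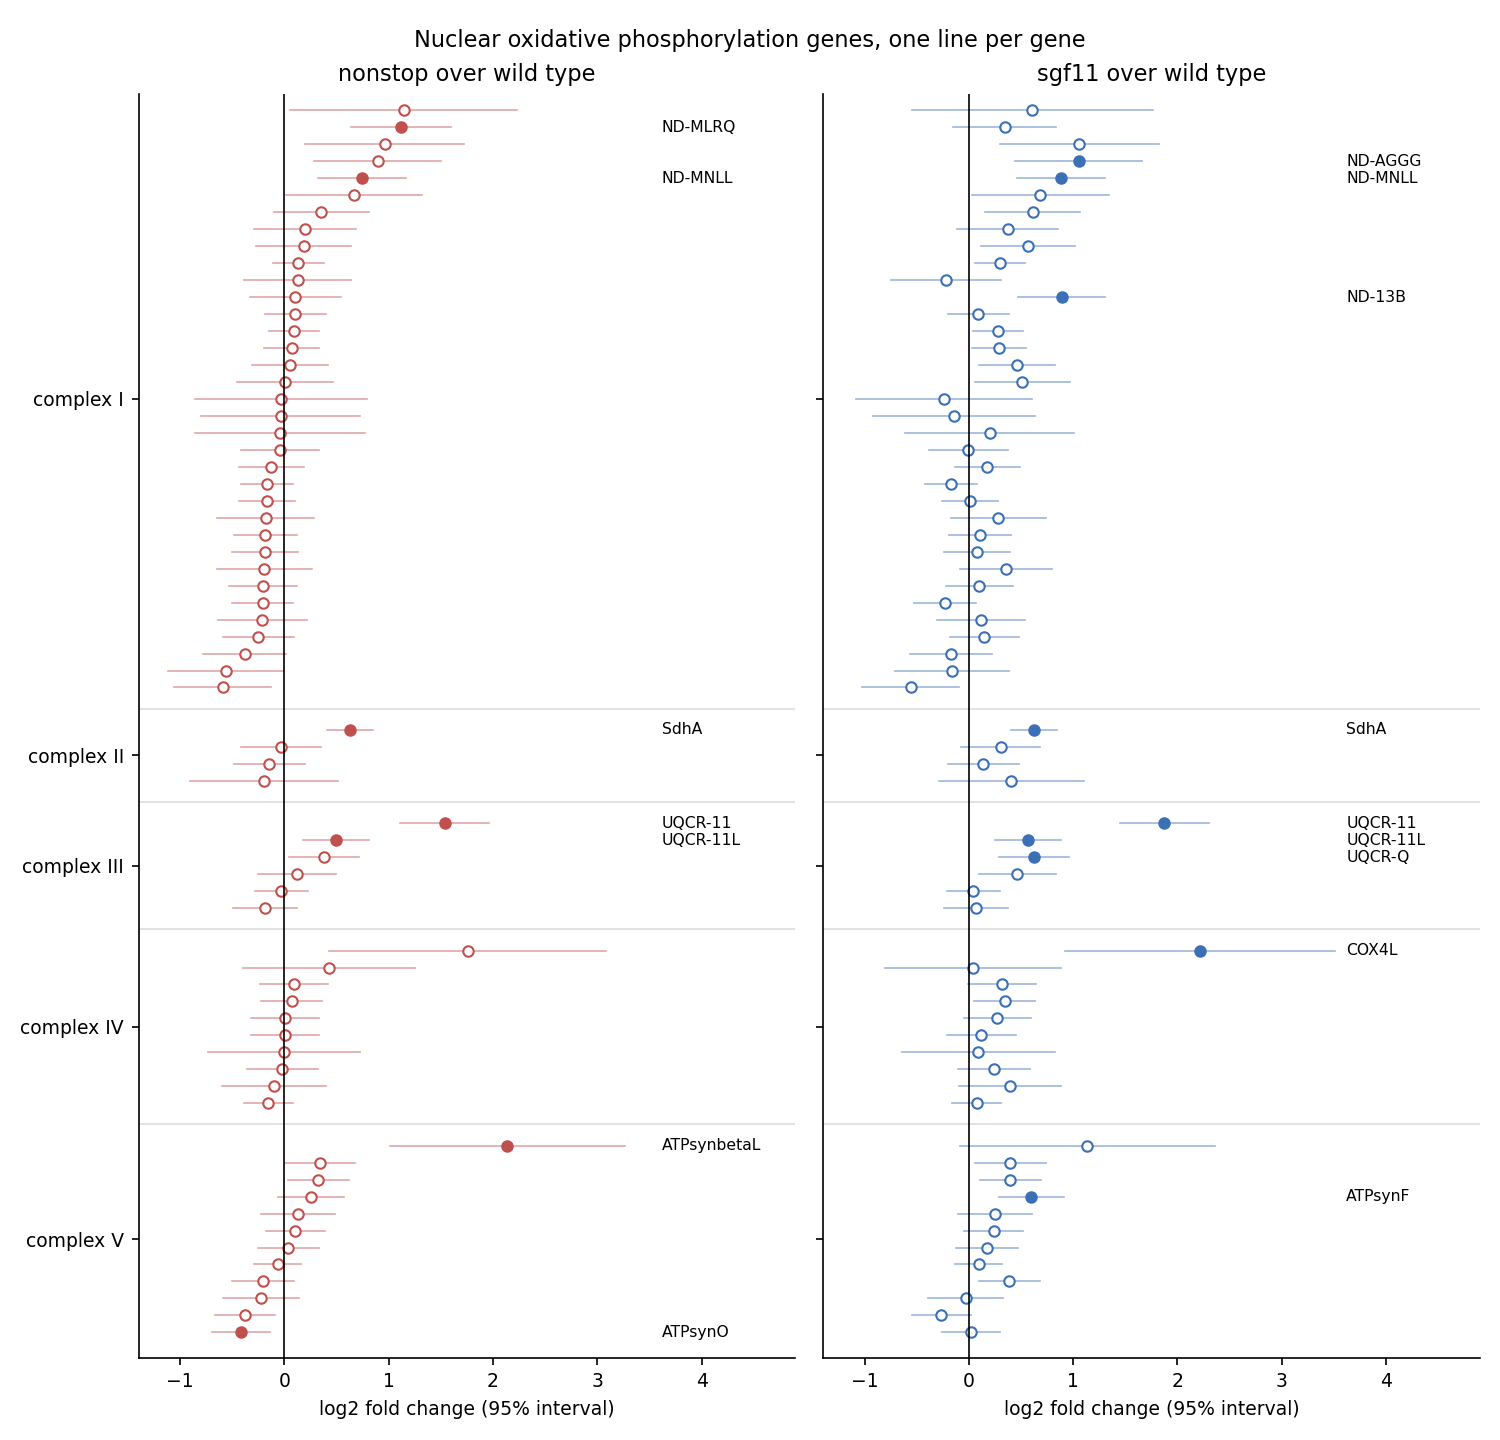
Log2 fold change over wild type of each of the 67 tested genes in *nonstop* (left) and *sgf11* (right), 1 line per gene, grouped by complex and kept in the same vertical order in both panels. Points are estimates, lines are 95% intervals, and filled, named points have an adjusted p under 0.01. Most points lie close to 0, and the ones far to the right are few and differ between complexes.

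*SdhA*, *UQCR-11*, *UQCR-11L* and *ND-MNLL* rose in both mutants, 5.97% of the genes tested here, where 13.1% of all genes tested rose in both. No gene fell in both, where 11.8% of all genes did. The mutant comparisons share the wild-type libraries, so a high or low wild-type library moves both at once. The 95% interval of the log2 fold change lay within 2-fold in either direction for 55 of the 67 genes in *nonstop* and 52 in *sgf11*, and within 1.5-fold for 32 in *nonstop* and 27 in *sgf11*. Of all 9966 genes tested, 5886 lay within 2-fold in *nonstop* and 6181 in *sgf11*. Within 1.5-fold lay 2579 of them in *nonstop* and 2794 in *sgf11*.

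The middle of the distribution lay at wild-type level in *nonstop* and slightly above it in *sgf11*. The median log2 fold change over the 67 genes was 0.00 in *nonstop*, against 0.01 over all genes, and 0.27 in *sgf11*, against 0.02 over all genes. In *nonstop*, 32 of the 67 estimates were below 0, where 49.7% of all genes were. In *sgf11*, 11 of the 67 were below 0 and 56 above, where 49.0% of all genes were below. In *sgf11*, 15 genes had all 4 *sgf11* libraries above all 4 wild-type libraries, as 20.3% of all genes did, with none the other way round, as 19.3% did. In *nonstop*, 10 genes lay wholly above wild type, as 21.8% of all genes did, and *ATPsynO* alone lay wholly below, as 21.1% did. The genes above include *COX4L* in both mutants and *ATPsynbetaL* in *nonstop*, which passed the filter only with the help of mutant libraries.

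Single libraries spread as much as these medians. Against the wild-type mean, the median log2 ratio of the 67 genes was 0.11, 0.15, -0.05 and -0.10 in *nonstop* libraries 1 to 4, -0.01, 0.40, 0.34 and 0.22 in *sgf11* libraries 1 to 4, and 0.19, -0.00, -0.20 and 0.01 in wild-type libraries 1 to 4. Libraries 2, 3 and 4 of *sgf11* were above every wild-type library and *sgf11* library 1 was not, so the groups overlapped. Leaving out any 1 library kept the *sgf11* median between 0.20 and 0.34 and the *nonstop* median between -0.03 and 0.11.

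The scaling of the libraries moved these counts more than any single library. With scaling factors taken from abundant genes, namely the 3633 genes that still exceeded 1 CPM in 4 libraries when reads assigned to no gene were added to the totals, the median of all genes moved by 0.15 in *nonstop* and 0.12 in *sgf11*, and 9 of the 67 genes rose and 0 fell in *nonstop*, while 21 rose and 0 fell in *sgf11*. With library size alone it moved by -0.13 in *nonstop* and -0.05 in *sgf11*, and 4 genes rose and 3 fell in *nonstop*, while 8 rose and 0 fell in *sgf11*. With the abundant genes, 3473 of all 9966 genes tested were called in *nonstop* and 3035 in *sgf11*. In *sgf11*, though not in *nonstop*, the 67 genes were then no longer called less often than all genes. With library size alone, 3347 of all genes were called in *nonstop* and 2670 in *sgf11*. The share of all calls that were higher was 52.3% in *nonstop* and 53.8% in *sgf11* with the main scaling, 68.7% in *nonstop* and 69.2% in *sgf11* with the abundant genes, and 39.6% in *nonstop* and 49.8% in *sgf11* with library size alone. Relative to the median of all genes, the 67 genes stayed within 0.01 of it in *nonstop* and at 0.25 to 0.26 above it in *sgf11* under all of these scalings.

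Complex V held the most abundant members. Per kilobase of exon, *ATPsynbeta*, the catalytic subunit of the ATP synthase, reached 423 CPM per kb in *nonstop*, 446 in *sgf11* and 339 in wild type. *ATPsynC*, which forms the rotating ring in the membrane, followed with 169 CPM per kb in *nonstop*, 188 in *sgf11* and 176 in wild type. No other member passed 72 CPM per kb in any genotype. In wild type the median per kb was 34.0 CPM for complex V, against 19.7 for complex III, 19.1 for complex IV, 12.2 for complex II and 11.1 for complex I, and the ranges of all complexes overlapped.

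**Figure D2:**
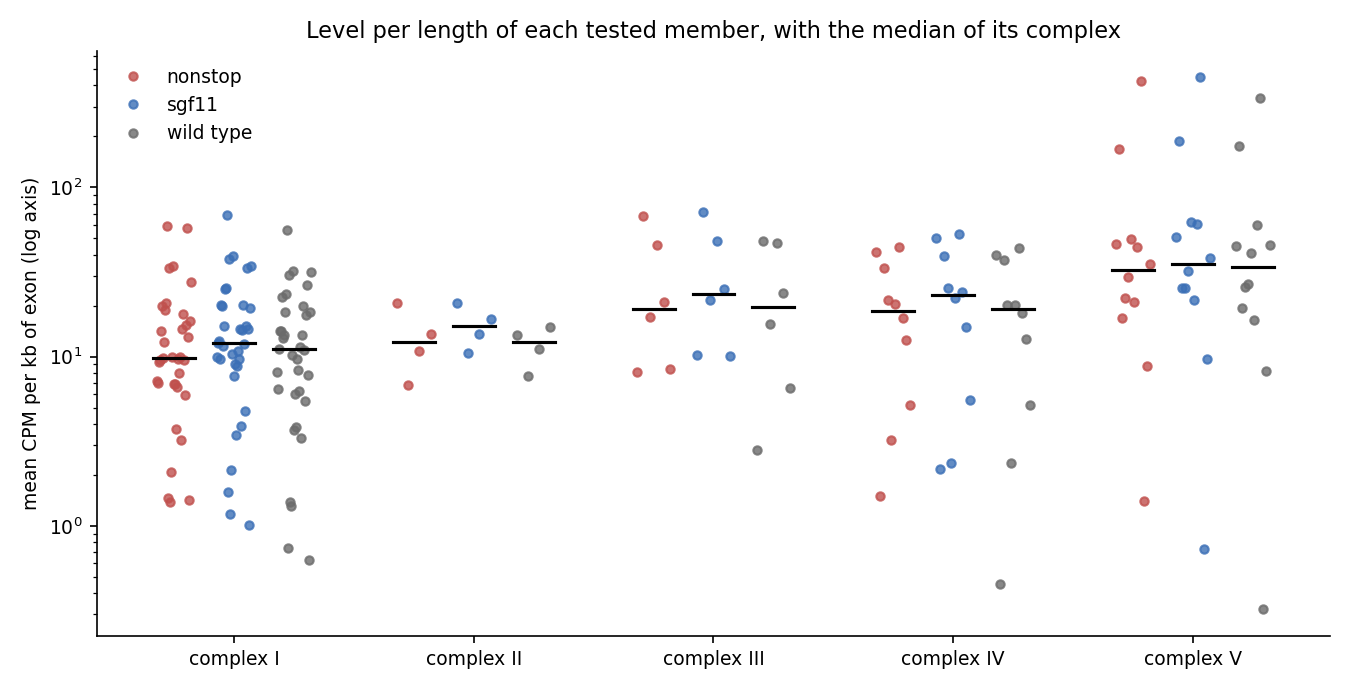
Mean level of each tested gene over 4 libraries, in CPM per kilobase of exon on a log axis, by complex and genotype, with black bars for the median of the complex. The 2 points far above the others in complex V are *ATPsynbeta* and *ATPsynC*, and the lowest gene of complex V lies at 1.39 in *nonstop*, 0.727 in *sgf11* and 0.322 in wild type. The medians of complex I are 9.87 in *nonstop*, 12 in *sgf11* and 11.1 in wild type.

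Complex I passes electrons from NADH to ubiquinone through a chain of iron-sulfur clusters held by its conserved core subunits. Over its 35 tested genes the median log2 fold change was -0.03 in *nonstop* and 0.20 in *sgf11*. There were 2 genes up in *nonstop*, 3 up in *sgf11* and 0 down in either. Of all genes tested, 18.7% were called higher in *nonstop* and 16.4% in *sgf11*. The small *nonstop* median turned to 0.11 with scaling by abundant genes.

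*ND-75*, which carries several iron-sulfur clusters, had log2 fold changes of -0.05 in *nonstop* and -0.00 in *sgf11*. *ND-51*, which binds NADH, had 0.13 in *nonstop* and 0.30 in *sgf11*, and *ND-20*, at the end of the cluster chain, had -0.17 in both. *ND-23*, another cluster-bearing core gene, had -0.38 in *nonstop* and -0.17 in *sgf11*, and none of these 4 genes was called. The core genes as a group had medians of -0.09 in *nonstop* and 0.09 in *sgf11*. All complex I calls fell among the accessory subunits, which surround the core and take no part in electron transfer. Of the 26 tested, 2 were up in *nonstop*, where 18.7% of all genes were called higher, and 3 in *sgf11*, where 16.4% were.

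*ND-MLRQ* rose in *nonstop* and was not called in *sgf11*. Its mammalian counterpart NDUFA4 is now counted with complex IV. It had 28.7, 35.5, 33.1 and 26.2 CPM in *nonstop*, 19.2, 11.1, 27.4 and 14.5 in *sgf11*, and 14.1, 16.5, 10.2 and 16.2 in wild type. Every *nonstop* library was above every wild-type library, while the *sgf11* libraries spread over more than the wild-type range and *sgf11* library 3 reached the *nonstop* range. Over wild type the log2 fold change was 1.12 ± 0.21 (SE) in *nonstop* (edgeR quasi-likelihood adjusted p = 3.54e-04) and 0.34 ± 0.22 in *sgf11* (adjusted p = 0.214). The mutants themselves differed by 0.77 ± 0.21, with an edgeR quasi-likelihood adjusted p of 0.0505 that became 0.0060 without *sgf11* library 3.

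*ND-13B*, the counterpart of human NDUFA5, rose in *sgf11* and was not called in *nonstop*. It had 4.28, 3.61, 4.54 and 4.16 CPM in *nonstop*, 6.73, 6.52, 8.50 and 6.98 in *sgf11*, and 4.46, 3.73, 4.15 and 3.05 in wild type. The *sgf11* libraries stood above all 8 others, and the *nonstop* and wild-type libraries covered one range. It rose by a log2 fold change of 0.89 ± 0.19 (SE) in *sgf11* (edgeR quasi-likelihood adjusted p = 9.08e-04) and had 0.10 ± 0.19 in *nonstop* (adjusted p = 0.677). *Nonstop* over *sgf11* was -0.79 ± 0.19, with an adjusted p of 0.0205 by edgeR's quasi-likelihood test.

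*ND-MNLL* and *ND-AGGG*, small membrane subunits whose human counterparts are NDUFB1 and NDUFB2, were high in both mutants. *ND-MNLL* had 8.80, 8.33, 10.2 and 10.4 CPM in *nonstop*, 8.67, 10.3, 12.5 and 10.5 in *sgf11*, and 7.19, 5.16, 3.96 and 6.20 in wild type. Both mutants lay wholly above wild type and overlapped each other. Its log2 fold change came to 0.74 ± 0.19 (SE) in *nonstop* (edgeR quasi-likelihood adjusted p = 0.00332) and 0.88 ± 0.19 in *sgf11* (adjusted p = 0.00101); the *nonstop* call was lost without *nonstop* library 4 and with library size alone, at adjusted p of 0.0112 to 0.0121. In the BDGP6 annotation *ND-MNLL* lies inside *CG45089*, a gene not analysed here, on the same strand and with overlapping exons. Spliced as well as unspliced reads of *CG45089* could therefore be counted with *ND-MNLL*, and their part in the result was not tested.

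*ND-AGGG* had 4.89, 4.03, 6.05 and 5.44 CPM in *nonstop*, 5.53, 5.0, 9.08 and 3.36 in *sgf11*, and 2.91, 2.85, 3.09 and 2.10 in wild type. Both mutants lay above wild type, narrowly for *sgf11* library 4. The log2 fold change was 1.05 ± 0.27 (SE) in *sgf11* (edgeR quasi-likelihood adjusted p = 0.0043) and 0.89 ± 0.27 in *nonstop* (adjusted p = 0.0111), which misses the threshold by little and passes it with DESeq2 and edgeR's exact test. The *sgf11* call was lost without *sgf11* library 3 or without wild-type library 4, at adjusted p of 0.0145 to 0.0227.

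The lowest estimate among the 67 genes belonged to *ND-18*, the counterpart of human NDUFS4, singled out here after its values were seen. It had 7.2, 10.1, 5.6 and 6.2 CPM in *nonstop*, 6.5, 7.6, 9.5 and 6.3 in *sgf11*, and 13.8, 9.3, 9.0 and 11.6 in wild type. *Nonstop* library 2 and *sgf11* library 3 reached into the wild-type range. Over wild type the log2 fold change was -0.59 ± 0.20 (SE) in *nonstop* and -0.56 ± 0.20 in *sgf11*, with edgeR quasi-likelihood adjusted p of 0.0232 in *nonstop* and 0.0347 in *sgf11*, so neither was called.

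Complex II, succinate dehydrogenase, sits in both the citric acid cycle and the electron transport chain and is made from nuclear genes alone. Its catalytic flavoprotein gene *SdhA* rose in both mutants and the other subunit genes were not called. *SdhA* had 61.5, 51.6, 60.2 and 55.3 CPM in *nonstop*, 56.0, 59.4, 56.3 and 56.6 in *sgf11*, and 40.1, 37.9, 31.9 and 38.2 in wild type. All 8 mutant libraries stood above all 4 wild-type libraries by a wide margin, and the mutants overlapped. Its log2 fold change came to 0.63 ± 0.10 (SE) in *nonstop* (edgeR quasi-likelihood adjusted p = 4.65e-05) and 0.62 ± 0.10 in *sgf11* (adjusted p = 6.21e-05), and both calls held in all alternatives tried.

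*SdhB*, the iron-sulfur subunit that takes electrons from SdhA, had 8.19, 9.86, 7.98 and 7.13 CPM in *nonstop*, 7.29, 20.2, 17.3 and 6.21 in *sgf11*, and 13, 8.78, 9.46 and 6.31 in wild type. The *sgf11* libraries fell into a low and a high pair, libraries 2 and 3 being the high ones. *SdhC*, a membrane anchor, ranged over 8.89 to 11.2 CPM in *nonstop*, 9.68 to 14.2 in *sgf11* and 7.92 to 11.6 in wild type. *SdhD*, the other anchor, ranged over 10.4 to 14 CPM in *nonstop*, 12.8 to 19.2 in *sgf11* and 12.4 to 13.8 in wild type. For these 3 genes the groups overlapped, and the log2 fold changes lay between -0.19 and -0.03 in *nonstop* and between 0.14 and 0.41 in *sgf11*, with edgeR quasi-likelihood adjusted p of 0.154 or more.

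The summed level of complex II was 87.4 ± 3.34 CPM in *nonstop*, 97.0 ± 11.7 CPM in *sgf11* and 69.8 ± 7.27 CPM in wild type (SD, n = 4 each). Complex II was the only complex whose summed level lay wholly above wild type in both mutants, at 84.4 to 91.3 CPM in *nonstop*, 86.0 to 112.3 in *sgf11* and 61.6 to 78.6 in wild type, and *SdhA* supplied most of it. The sums of complex I averaged 545.6 ± 52.4 CPM in *nonstop*, 617.1 ± 53.9 in *sgf11* and 534.2 ± 49.2 in wild type. Those of complex IV averaged 164.9 ± 18.7 CPM in *nonstop*, 196.0 ± 25.1 in *sgf11* and 162.9 ± 17.3 in wild type, and in these and in complexes III and V each mutant overlapped wild type. In bulk nuclei, fewer cells of a type and less RNA per cell cannot be told apart.

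**Figure D3:**
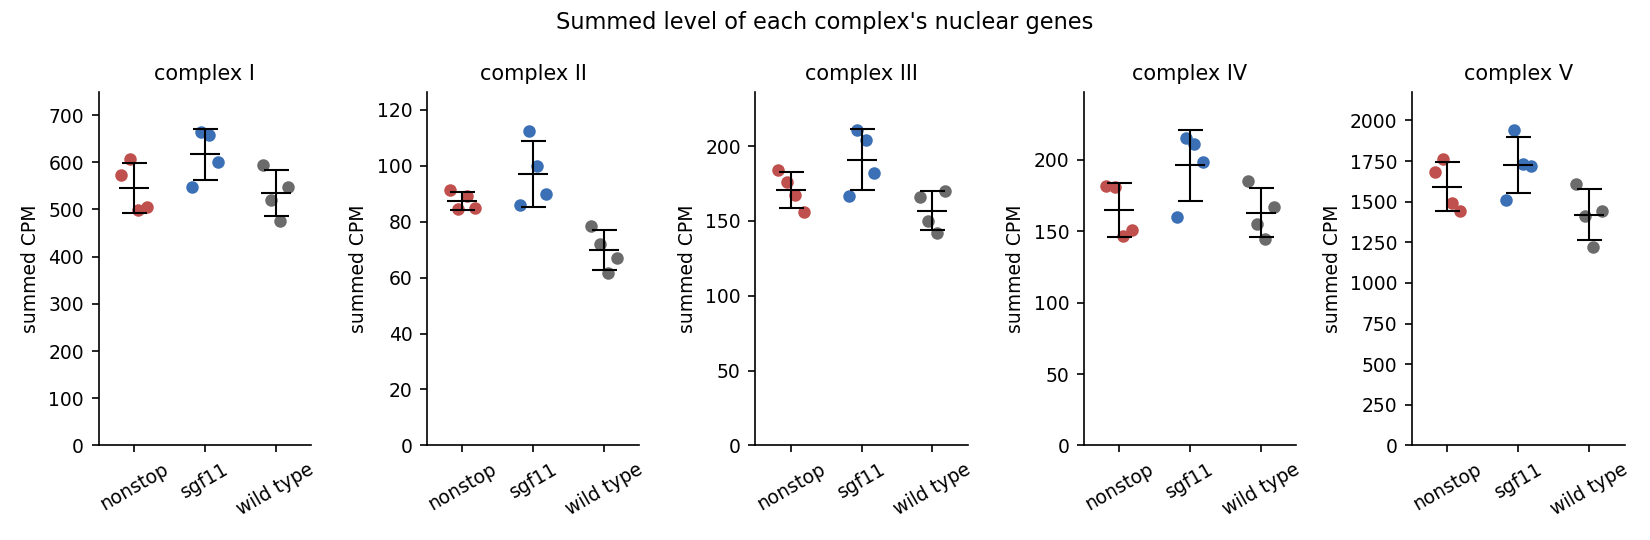
Summed level, in CPM, of the nuclear genes of each complex in each library, with the mean (bar) and SD (whiskers) of 4 libraries per genotype. Only for complex II do all *nonstop* libraries (84.4 to 91.3 CPM) and all *sgf11* libraries (86.0 to 112.3 CPM) lie above all wild-type libraries (61.6 to 78.6 CPM).

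Complex III, which hands electrons from ubiquinol to cytochrome c, had the highest medians of the complexes. Over its 6 tested genes the median log2 fold change was 0.25 in *nonstop* and 0.52 in *sgf11*, and its direction was the same under every scaling. Of these few genes 2 were up in *nonstop*, 3 up in *sgf11* and 0 down in either. Of all genes tested, 18.7% were called higher in *nonstop* and 16.4% in *sgf11*. *UQCR-11*, the counterpart of the human hinge protein UQCRH that helps cytochrome c dock, gave the strongest rise of all members by adjusted p. It had 11.4, 12.1, 14.9 and 14 CPM in *nonstop*, 17.4, 12.1, 22.1 and 14.6 in *sgf11*, and 4.91, 4.94, 3.57 and 4.63 in wild type. The lowest mutant library was at more than double the highest wild-type library. The log2 fold change was 1.54 ± 0.19 (SE) in *nonstop* (edgeR quasi-likelihood adjusted p = 4.78e-06) and 1.88 ± 0.19 in *sgf11* (adjusted p = 6.21e-07), and both calls held in all alternatives tried.

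*UQCR-11* and *ND-AGGG* are near neighbours on chromosome arm 3L, a position noticed after their values were seen. In BDGP6 only *Set1* and *MED21* lie between them. *Set1*, a histone methyltransferase gene, had log2 fold changes of 0.47 in *nonstop* (edgeR quasi-likelihood adjusted p = 0.00325) and 0.33 in *sgf11* (adjusted p = 0.0320), and *MED21*, a Mediator subunit gene, had 0.62 in *nonstop* and 0.31 in *sgf11* with neither called. Next to *UQCR-11* on the other side, *CR40354* rose by 2.13 in *nonstop* and 2.59 in *sgf11* on the log2 scale, and next to *ND-AGGG*, *CG40472* rose by 2.14 in *nonstop* and 2.27 in *sgf11*. Whether the location has a part in the change of either gene was not tested.

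*UQCR-11L*, the L gene of the hinge protein, was more abundant than *UQCR-11* per length, at 67.7 CPM per kb in *nonstop*, 71.5 in *sgf11* and 48.1 in wild type. It had 33.7, 28.7, 28.6 and 29.0 CPM in *nonstop*, 26.6, 31.7, 35.0 and 33.5 in *sgf11*, and 16.2, 19.3, 23.7 and 26.1 in wild type. Both mutants lay above wild type, but wild-type library 4 came within 1 CPM of *sgf11* library 1. Over wild type the log2 fold change was 0.50 ± 0.14 (SE) in *nonstop* (edgeR quasi-likelihood adjusted p = 0.0072) and 0.57 ± 0.14 in *sgf11* (adjusted p = 0.0032). The *nonstop* call was lost with library size alone, without the low-count filter and without wild-type library 1 or 2 or any 1 *nonstop* library (adjusted p up to 0.0949), and the *sgf11* call with library size alone and without wild-type library 2 or *sgf11* library 3 (up to 0.0247).

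The gene *UQCR-11L* lies inside *Acsl* in BDGP6, on the same strand and without overlapping exons. The reads were counted without strand. *Acsl*, a long-chain acyl-CoA synthetase gene, averaged 377 CPM and had log2 fold changes of 0.30 in *nonstop* and 0.34 in *sgf11*, with edgeR quasi-likelihood adjusted p of 0.0434 in *nonstop* and 0.0247 in *sgf11*. The part of *Acsl* pre-mRNA in the *UQCR-11L* counts was not tested.

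*UQCR-Q*, a small subunit next to cytochrome b, had 8.56, 8.33, 9.08 and 7.13 CPM in *nonstop*, 9.50, 10.3, 9.96 and 9.31 in *sgf11*, and 7.37, 6.25, 5.70 and 5.99 in wild type. The *sgf11* libraries stood above all others, and *nonstop* library 4 lay within the wild-type range. Its log2 fold change came to 0.62 ± 0.15 (SE) in *sgf11* (edgeR quasi-likelihood adjusted p = 0.00266) and 0.38 ± 0.15 in *nonstop* (adjusted p = 0.0449). The core proteins were not called: *UQCR-C1*, the most abundant complex III gene by CPM, had 77.5, 78.9, 75.9 and 65.5 CPM in *nonstop*, 66.3, 89.9, 84.5 and 73.2 in *sgf11* and 82.9, 74.9, 65.1 and 81.1 in wild type, and *UQCR-C2* had log2 fold changes of -0.19 in *nonstop* and 0.07 in *sgf11*. *UQCR-14*, the counterpart of human UQCRB, shares its whole exon length with *CG32576*, so its values are uncertain.

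Complex IV, cytochrome c oxidase, had no call in *nonstop*, where 35.7% of all genes were called, and 1 in *sgf11*, where 30.5% were. Over its 10 tested genes the median log2 fold change was 0.00 in *nonstop* and 0.26 in *sgf11*; the *nonstop* median turned to 0.15 with scaling by abundant genes and -0.12 with library size alone. *COX4*, a nuclear subunit through which mammalian cells tune the enzyme and the most abundant member here, had 56.3, 59.7, 41.3 and 47.6 CPM in *nonstop*, 49.5, 69.9, 63.7 and 65.0 in *sgf11*, and 54.9, 46.3, 43.9 and 50.1 in wild type. The *nonstop* libraries lay on both sides of wild type, and *sgf11* library 1 lay within the wild-type range. The log2 fold change was 0.07 ± 0.13 (SE) in *nonstop* and 0.34 ± 0.13 in *sgf11*, with edgeR quasi-likelihood adjusted p of 0.684 in *nonstop* and 0.0391 in *sgf11*. *COX5A*, *COX5B*, *COX6B*, *COX7A*, *COX7B*, *COX7C* and *COX8*, other nuclear subunits, had log2 fold changes of -0.16 to 0.09 in *nonstop* and 0.08 to 0.40 in *sgf11*.

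The called gene of complex IV was *COX4L*, with very few reads: 41 over the 4 *nonstop* libraries, 50 over the *sgf11* libraries and 13 over the wild-type libraries. Its levels were 0.978, 0.694, 0.825 and 1.87 CPM in *nonstop*, 1.57, 2.12, 1.32 and 1.29 in *sgf11*, and 0, 0.439, 0.676 and 0.210 in wild type. The mutants lay above wild type, in *nonstop* by a margin of less than 1 read. *COX4L* passed the filter only with the help of mutant libraries, so the direction of its call was partly set by the filter. Over wild type the log2 fold change was 2.21 ± 0.57 (SE) in *sgf11* (edgeR quasi-likelihood adjusted p = 0.00469) and 1.76 ± 0.59 in *nonstop* (adjusted p = 0.0198). The *sgf11* call was lost without wild-type library 1 or 4 or without *sgf11* library 2, at adjusted p of 0.0103 to 0.0148.

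In complex V, 2 genes had a call in *nonstop*, where 35.7% of all genes were called, and 1 in *sgf11*, where 30.5% were. Over its 12 tested genes the median log2 fold change was 0.07 in *nonstop*, where library size alone turned it to -0.05, and 0.24 in *sgf11*. *ATPsynbeta* had 1094, 1139, 907 and 901 CPM in *nonstop*, 945, 1219, 1074 and 1021 in *sgf11*, and 962, 791, 667 and 812 in wild type. Wild-type library 1 overlapped both mutants and the other 3 wild-type libraries lay below them. Its log2 fold change came to 0.32 ± 0.13 (SE) in *nonstop* and 0.40 ± 0.13 in *sgf11*, with edgeR quasi-likelihood adjusted p of 0.0480 in *nonstop* and 0.0191 in *sgf11*. It passed 0.01 in 3 of 21 alternatives in *nonstop* and 5 of 21 in *sgf11*. In both mutants these were leaving out wild-type library 1, scaling by abundant genes and the filter on mean log2 CPM above 4.5. DESeq2 and edgeR's exact test added to them in *sgf11*.

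*ATPsynbeta* alone made up 37.9% to 40.6% of the summed CPM of all 82 genes in *nonstop*, 36.6% to 38.8% in *sgf11* and 32.6% to 36.6% in wild type, so sums over the members follow it closely. The sum of all members averaged 2561 ± 232 CPM in *nonstop*, 2827 ± 277 in *sgf11* and 2345 ± 240 in wild type. Without *ATPsynbeta* it averaged 1551 ± 109 CPM in *nonstop*, 1762 ± 168 in *sgf11* and 1536 ± 121 in wild type (SD, n = 4 each). *ATPsynbeta* lies on chromosome 4, where the median log2 fold change of all 83 tested genes was 0.39 in *nonstop* and 0.38 in *sgf11*.

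*ATPsynO* and *ATPsynCF6* encode parts of the peripheral stalk, which holds the catalytic head still, and both stood lower in *nonstop* than in *sgf11*. *ATPsynO* had 34.7, 37.5, 37.8 and 32.9 CPM in *nonstop*, 40.7, 57.0, 45.1 and 51.1 in *sgf11*, and 58.0, 44.1, 41.8 and 46.9 in wild type. All *nonstop* libraries lay below all others. It fell in *nonstop* over wild type, with a log2 fold change of -0.42 ± 0.12 (SE) and an edgeR quasi-likelihood adjusted p of 0.00924, while *sgf11* over wild type was 0.02 ± 0.12. That call was a narrow one: it was lost with scaling by abundant genes, with the filter on mean log2 CPM above 4.5, with the replicate block, and without wild-type library 1, 2 or 4, *nonstop* library 1, 2 or 4, or *sgf11* library 3 or 4, at adjusted p of 0.0116 to 0.0766.

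*ATPsynCF6* had 11.7, 13.3, 12.2 and 10.4 CPM in *nonstop*, 17.7, 19.6, 16.0 and 18.4 in *sgf11*, and 13.3, 12.6, 12.6 and 16.2 in wild type. The mutants did not overlap, and wild type lay between them and overlapped both. *Nonstop* over *sgf11* was -0.59 ± 0.13 (SE) on the log2 scale, with an edgeR quasi-likelihood adjusted p of 0.0134, the lowest of any member in that comparison. The other tested stalk genes, *ATPsynB* and *ATPsynD*, were at -0.13 and -0.19 in the same comparison.

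*ATPsynF*, a small subunit in the membrane part, had 36.7, 32.8, 25.3 and 26.2 CPM in *nonstop*, 31.6, 41.2, 41.9 and 38.8 in *sgf11*, and 29.8, 26.1, 21.8 and 23.1 in wild type. The *sgf11* libraries lay above wild type, and the *nonstop* libraries overlapped both. The log2 fold change was 0.60 ± 0.14 (SE) in *sgf11* (edgeR quasi-likelihood adjusted p = 0.00214) and 0.26 ± 0.14 in *nonstop* (adjusted p = 0.137). *ATPsyngamma*, the turning central shaft, was at -0.38 in *nonstop* (adjusted p = 0.0189) and -0.27 in *sgf11* (adjusted p = 0.0970) and was not called.

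*ATPsynbetaL*, the L gene of the catalytic subunit, had 2.81, 2.5, 2.89 and 3.14 CPM in *nonstop*, 0.461, 2.42, 1.61 and 1.42 in *sgf11*, and 0.273, 1.32, 0.193 and 0.841 in wild type. *Nonstop* lay above all other libraries, and *sgf11* and wild type overlapped. The gene passed the filter only with the help of mutant libraries, so the direction of its call was partly set by the filter. Over wild type the log2 fold change was 2.14 ± 0.50 (SE) in *nonstop* (edgeR quasi-likelihood adjusted p = 0.00199) and 1.14 ± 0.54 in *sgf11* (adjusted p = 0.0982). Its level per length stayed far under that of *ATPsynbeta*, at 1.39 CPM per kb in *nonstop*, 0.727 in *sgf11* and 0.322 in wild type.

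**Figure D4:**
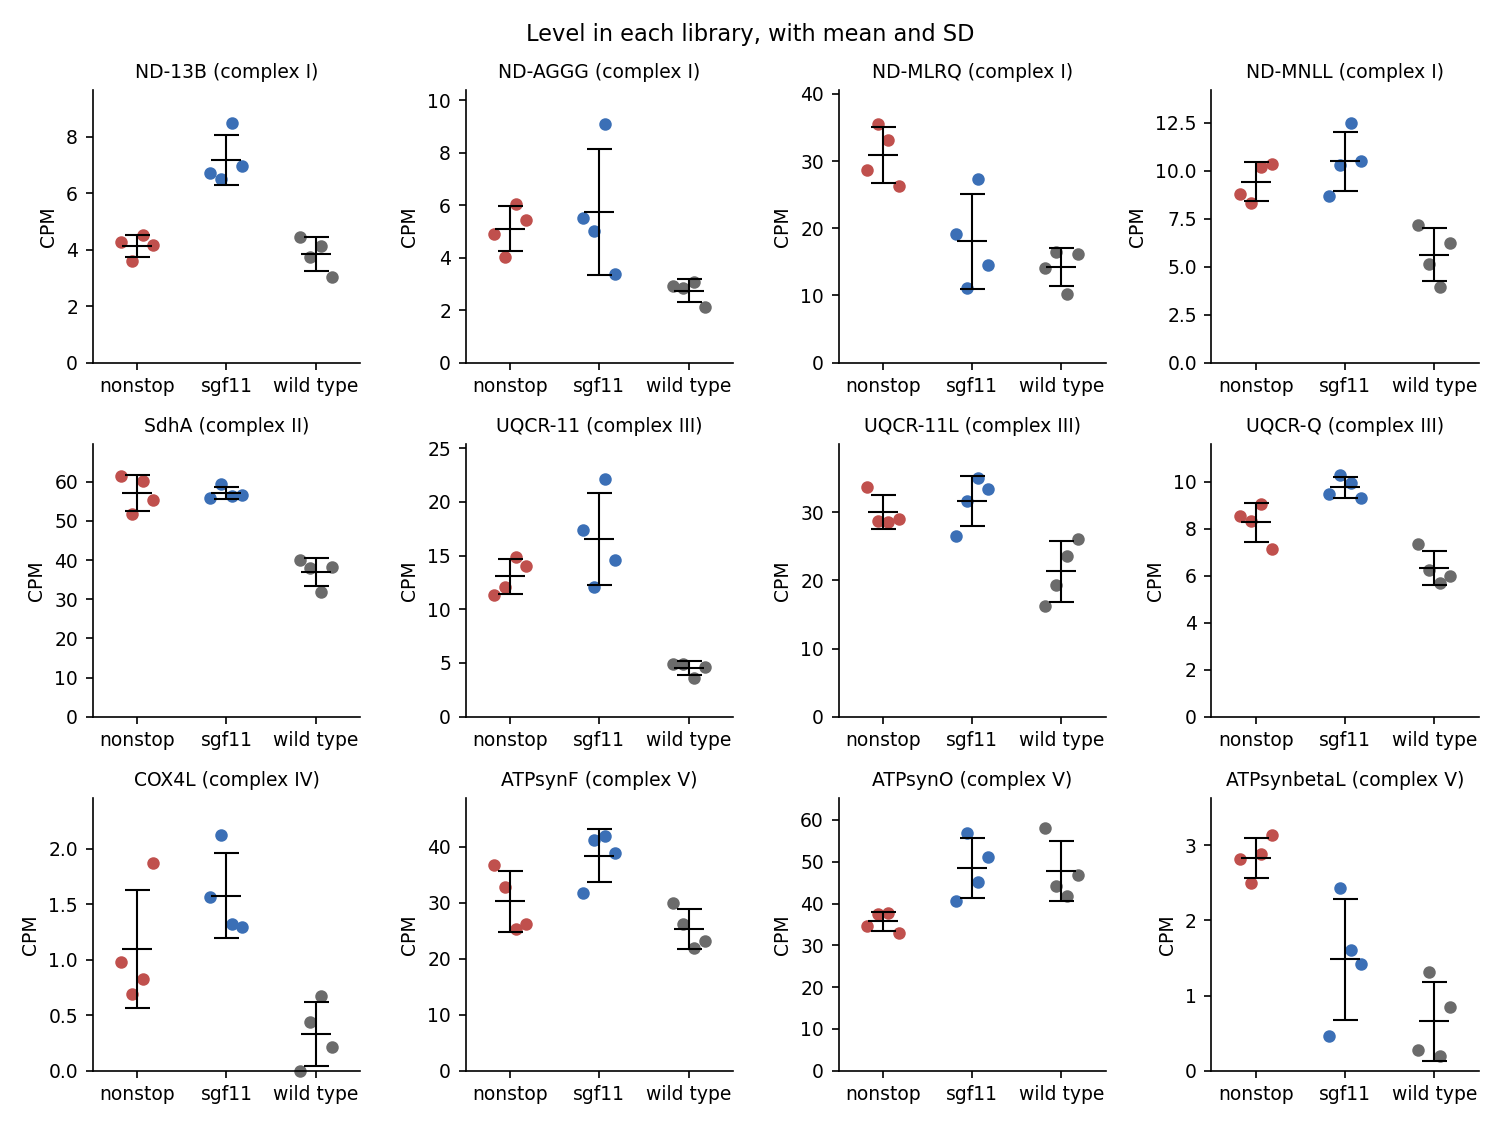
Level in CPM of the 12 genes called in at least 1 mutant, in each of the 4 libraries of *nonstop*, *sgf11* and wild type, with mean (bar) and SD (whiskers). *SdhA*, *UQCR-11* and *ND-MNLL* are high in both mutants, *ND-MLRQ* and *ATPsynbetaL* in *nonstop*, *ND-13B* in *sgf11*, and *ATPsynO* is lowest in *nonstop*.

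Most L genes had few reads or none. Many L copies of respiratory genes in flies are known for expression in the testis. Of the 20, 7 passed the filter, and 3 (*ND-24L*, *COX6AL2* and *ATPsynGL*) had no read in any library. Among those under the filter, *COX7AL* had 29 reads over the *nonstop* libraries, 24 over the *sgf11* libraries and 4 over the wild-type libraries, and *ATPsynepsilonL* had 19 over *nonstop*, 10 over *sgf11* and 10 over wild type. Reads by genotype of most other L genes under the filter are not given here, so these examples do not describe the set.

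Leaving the L genes out, 60 genes were tested, of which 4 rose and 1 fell in *nonstop* and 7 rose and 0 fell in *sgf11*. Leaving out instead the 7 tested genes that lie inside another gene gave the same counts, 4 and 1 in *nonstop* and 7 and 0 in *sgf11*. The shares over all genes tested were 18.7% higher and 17.0% lower in *nonstop*, and 16.4% higher and 14.1% lower in *sgf11*. These leave-outs were chosen after the data were seen.

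Between the mutants, *nonstop* tended to the lower values but no gene was called. In *nonstop* over *sgf11*, edgeR's quasi-likelihood test called 0 of the 67 genes, where it called 2.11% of all genes tested, 0.823% as higher and 1.28% as lower. At an unadjusted p under 0.05, 16 of the 67 passed, where 17.0% of all genes did, 2 passed at an adjusted p under 0.05, where 3.87% did, DESeq2 called 1 lower and edgeR's exact test called 2 lower. The median log2 fold change was -0.21, against -0.01 over all genes, and 56 of the 67 estimates were below 0, where 52.1% of all genes were. This tilt was not particular to the 67 genes. Below 0 were also 13 of 14 genes of the citric acid cycle and pyruvate dehydrogenase. The same held for 49 of 66 mitochondrial and 69 of 80 cytosolic ribosomal protein genes. Of 15 genes of the mitochondrial genome 4 were below 0, as were 4 of 9 biogenesis regulators. Every complex had a median below 0 under every scaling, at -0.31 for complex II, -0.25 for complex III, -0.25 for complex IV, -0.19 for complex I and -0.13 for complex V. In 10 genes all *nonstop* libraries lay below all *sgf11* libraries, as in 5.51% of all genes, and in *ATPsynbetaL* they lay above, as in 4.71%.

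Some chain subunits have symbols outside the naming rule. Of 6 tested, *sun*, the epsilon subunit of the ATP synthase, rose in *nonstop* by 0.51 ± 0.15 (SE, log2; edgeR quasi-likelihood adjusted p = 0.00967) and in *sgf11* by 0.66 ± 0.15 (adjusted p = 0.00191), and no other was called. *blw*, the alpha subunit that pairs with *ATPsynbeta* in the catalytic head, was at -0.19 in *nonstop* and 0.00 in *sgf11*. *RFeSP*, the Rieske protein of complex III, was at -0.10 in *nonstop* and 0.37 in *sgf11*.

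The mitochondrial genome encodes the partner subunits of complexes I, III, IV and V. Its 15 tested genes include the ribosomal RNA genes *mt:lrRNA* and *mt:srRNA* beside the subunit genes. Of the 15, 7 rose in *nonstop* and 3 in *sgf11* with 0 down in either, where 18.7% of all genes rose in *nonstop* and 16.4% in *sgf11*. The median log2 fold changes were 0.66 in *nonstop* and 0.44 in *sgf11*, and with library size alone 6 rose and 0 fell in *nonstop* and 3 rose and 1 fell in *sgf11*. *mt:ND4* rose by 1.52 in *nonstop* and 0.78 in *sgf11*, and *mt:ATPase6* by 1.46 in *nonstop* and 1.78 in *sgf11*. Reads of the mitochondrial genome made up 11.7% to 16.1% of gene reads in *nonstop*, 12.5% to 19.9% in *sgf11* and 11% to 13.1% in wild type. Where these reads came from was not tested.

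Other nuclear genes for mitochondria are given by list. Among 8 tested assembly factors, *Nubpl*, which helps load iron-sulfur clusters into complex I, rose in *nonstop* (0.66), and *Bcs1* and *Sirup*, which act on complexes III and II, rose in *sgf11* (*Bcs1* 0.68, *Sirup* 0.80). Of 6 carriers and porin, *Ant2*, an ADP/ATP exchanger, rose in both (0.91 in *nonstop* and 1.0 in *sgf11*), *Mpc1* in *nonstop* and *Mpcp2* in *sgf11*, so that 33.3% of this list was called in each mutant, where 35.7% of all genes were in *nonstop* and 30.5% in *sgf11*. Of 14 genes of the citric acid cycle and pyruvate dehydrogenase, 0 were called in *nonstop* and *Ogdh* rose in *sgf11* (0.50); with scaling by abundant genes 2 rose in *nonstop* and 3 in *sgf11*, and with library size alone 3 fell in *nonstop* and 0 were called in *sgf11*. Of 10 import genes *Tim17b1* rose in both (0.70 in *nonstop* and 0.60 in *sgf11*).

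Regulators and ribosomal protein genes went different ways. Of all genes tested, 18.7% were called higher and 17.0% lower in *nonstop*, and 16.4% higher and 14.1% lower in *sgf11*. Of 9 biogenesis regulators, *Myc* (0.70 in *nonstop* and 0.56 in *sgf11*) and *ewg* (0.60 in *nonstop* and 0.44 in *sgf11*), the fly counterpart of the nuclear respiratory factor, rose in both mutants, and *PolrMT*, the mitochondrial RNA polymerase gene, rose in *nonstop* (0.77). Of 66 mitochondrial ribosomal protein genes 0 rose and 3 fell in *nonstop*, *mRpL3*, *mRpL30* and *mRpL32*, and 0 rose and *mRpS16* fell in *sgf11*, and with scaling by abundant genes 0 fell in either, while with library size alone 6 fell in *nonstop* and 1 in *sgf11*. Of 80 cytosolic ribosomal protein genes, 2 rose and 28 fell in *nonstop* and 3 rose and 7 fell in *sgf11*. The share called was 37.5% in *nonstop*, against 35.7% of all genes, and 12.5% in *sgf11*, against 30.5%. With scaling by abundant genes 4 of the 80 rose and 6 fell in *nonstop* and 6 rose and 2 fell in *sgf11*. With library size alone 0 of them rose and 51 fell in *nonstop*, and 3 rose and 11 fell in *sgf11*.

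Markers of other cells also differed between the genotypes, and their part in the results was not tested. For scale, 18.7% of all genes were called higher and 17.0% lower in *nonstop*, and 16.4% higher and 14.1% lower in *sgf11*. Of 8 neuron markers 5 rose in each mutant, with summed levels of 807 to 979 CPM in *nonstop*, 742 to 908 in *sgf11* and 565 to 760 in wild type. Of 5 neuroblast markers 1 fell in *nonstop* and 3 in *sgf11*, with sums of 66.8 to 84.7 CPM in *nonstop*, 53.5 to 84.2 in *sgf11* and 97.2 to 109 in wild type. Of 6 fat body markers 1 rose and 1 fell in *nonstop* and 4 rose and 1 fell in *sgf11*, with sums of 16651 to 26388 CPM in *nonstop*, 12044 to 16118 in *sgf11* and 2768 to 3129 in wild type, nearly all from *apolpp*, and 3 were lower in *nonstop* than in *sgf11*. Of 10 glial markers 3 rose and 2 fell in *nonstop*, where scaling by abundant genes gave 4 and 0, and 3 rose and 0 fell in *sgf11*. Of 4 hemocyte, 6 eye disc and 6 muscle markers tested, 0 were called in *nonstop*, and 1 eye disc and 1 muscle marker fell in *sgf11*.

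On chromosome 3, which carries the mutant alleles and the transgenes, 3 of 27 tested members rose and 1 fell in *nonstop* and 4 rose and 0 fell in *sgf11*, where 36.5% of all genes there were called in *nonstop* and 31.7% in *sgf11*. On the other chromosomes 3 of 40 rose and 0 fell in *nonstop* and 5 rose and 0 fell in *sgf11*, where 35.1% of all genes were called in *nonstop* and 29.3% in *sgf11*. By arm, 0 of 12 members on 2L were called in either mutant, where 35.6% of all genes on 2L were in *nonstop* and 30.1% in *sgf11*. Of 14 members on 3R 1 was called in *nonstop*, where 36.9% of all genes on 3R were, and 0 in *sgf11*, where 31.6% were. The median log2 fold changes were -0.03 in *nonstop* and 0.25 in *sgf11* on chromosome 3, and 0.07 in *nonstop* and 0.28 in *sgf11* elsewhere.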

How the data were processed

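RNA from GFP-labelled glial nuclei was amplified without strand information and sequenced as read pairs by the authors, who trimmed the reads (Trimmomatic 0.32), mapped them to the BDGP5 genome (TopHat2 2.0.13, Bowtie2 2.2.4) and deposited whole-number counts per gene (HTSeq 0.6.1, union mode, unstranded). Reads assigned to no gene, 96.1% to 96.7% of each file, were left out of library sizes. The authors' tables of log2 fold changes, log2 CPM, p-values and FDR were not used. From the deposited counts, genes above 1 CPM in at least 4 of 12 libraries were fitted in edgeR 4.0.16 (R 4.3.3; trimmed mean of M-values, TMM, scaling; quasi-likelihood test; common biological coefficient of variation 0.154), with genotype as the only term, all 3 comparisons from 1 fit and Benjamini-Hochberg adjustment. CPM are on TMM-scaled library sizes. Standard errors were the log2 fold change divided by the root of F, and 95% intervals used 9 degrees of freedom. Exon lengths, neighbours and hosts came from the BDGP6 annotation, whose coordinates served only for this and are not printed. Symbols were matched through FlyBase IDs, and 9 list entries had no single match.

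The genes and lists were chosen with earlier results of these data known. Members were named by rule: the most abundant per complex, up to 3 called per complex and direction, the 4 lowest p between mutants, all *Sdh* genes and the L genes. Not every gene that the rule names is reported here. In other mitochondrial lists, up to 2 called genes per direction were named. Further genes, added for their role or to complete a small count, were chosen after their values were seen. Alternatives were DESeq2 1.42.0, edgeR's exact test, other scalings and filters, fewer groups, a replicate block, an FDR of 0.05 and each library left out. The fits were tested on simulated counts.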

Additional observations from a re-analysis of the deposited data

Results flagged for a closer look

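In 78 groups of 4 libraries checked over the named genes and the summed levels of the complexes and of all members, 2 held a library far from the other 3 by Dixon's criterion, which chance alone meets in about 1 group of 20. *UQCR-11L* stood at 33.7 CPM in *nonstop* library 1, against 28.6 to 29.0 CPM in the other *nonstop* libraries, a gap of 0.931 of the group's range. *SdhD* stood at 12.4 CPM in wild-type library 3, against 13.7 to 13.8 CPM in the other wild-type libraries, a gap of 0.893 of the range.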

How the results depend on the processing

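For the 20 named genes, 1215 values under the alternatives kept their side of the threshold. A call was gained by 39 and lost by 29, and 0 changed sign while called. Values that were not called could change sign, such as *COX4* in *nonstop* over wild type, at -0.06 to 0.21 over the alternatives. Of the counts over all members, those of genes lower in *nonstop* than in wild type (1) became 3 with library size alone, 0 with scaling by abundant genes, 2 without the filter, 0 with mean log2 CPM above 4.5, 0 with the replicate block and 3 at an FDR of 0.05. Genes higher in *nonstop* (6) became 3 with mean log2 CPM above 4.5 and 11 at an FDR of 0.05. In *sgf11*, genes higher (9) became 21 with scaling by abundant genes and 21 at an FDR of 0.05, and genes lower (0) became 1 at that FDR. Among all genes tested, 49.0% were called in *nonstop* and 44.2% in *sgf11* at an FDR of 0.05. Scaling by abundant genes called 3035 of all 9966 genes in *sgf11*. In *nonstop* over *sgf11*, genes lower (0) became 1 with DESeq2, 2 with edgeR's exact test and 2 at an FDR of 0.05. With 1 library left out, genes higher and lower were 4 to 7 and 0 to 2 in *nonstop*, 7 to 11 and 0 to 0 in *sgf11*, and 0 to 1 and 0 to 0 in *nonstop* over *sgf11*, whose median lay between -0.26 and -0.15. The shared replicate numbers did not pair the libraries (correlations of same-numbered deviations -0.08 to 0.12, and 3 of 12 libraries closest to their own number), and with the replicate block 7 genes rose and 0 fell in *nonstop* and 9 rose and 0 fell in *sgf11*. With 7 to 12 reads per CPM, genes such as *COX4L* rest on a few reads per library, and intervals cover the spread between these libraries only.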
